A study of Mus musculus with 12 samples.

Results

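Mitochondrial ribosomal proteins build the ribosome that works inside mitochondria, and their genes were followed here across 6 groups of mouse CD4+ T cells. They were taken by symbol, as every gene named Mrpl or Mrps followed by a number and not marked as a pseudogene, on a probe set naming no other gene. This gave 61 genes of the 16426 on the arrays, 37 named for the large subunit (Mrpl) and 24 for the small subunit (Mrps). A further symbol that fits the rule, Mrpl53, stands only on a probe set that also names Ccdc142, and it has no value here. All 61 passed the filter on low values and were among the 8918 genes tested. Of these, 54 lay above the median of the array on all 12 arrays. Mrps36 passed the filter only through the arrays of one group, M176 Tregs, so the filter favoured a difference there. Mrps27 passed through replicate 1 of M176 Tregs and replicate 1 of M354-transduced cells. Mrps36 is among the genes called below in M176 against WT Tregs and Mrps27 is not. Both are among those called lower in M354 against M176 Tregs, which uses the same M176 arrays.

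RNA was measured on Affymetrix Mouse Gene ST 1.0 arrays, 2 for each group. The Treg groups were regulatory T cells (Tregs), CD4+ and CD25-high, purified by a double sort from spleens of mice with the genotype Foxp3(M354/M354), Foxp3(M176/M176) or Foxp3(WT/WT). The other groups were conventional CD4+ T cells of WT mice that received the M354, the M176 or the WT form of Foxp3 by retrovirus and were sorted for high Thy1.1. All came from male C57BL/6 mice aged 6 weeks. A transduction without Foxp3 is not among these samples, so every transduced group carries an added Foxp3. The labels do not give the amino acid changes behind the names M354 and M176. Nor do they tell whether replicate arrays came from different mice or cultures, so the p-values rest on the spread between samples whose origin, biological or technical, is not stated.

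The mitochondrial ribosome, or mitoribosome, translates the few proteins encoded by the mitochondrial genome, all of them subunits of the respiratory chain and ATP synthase. Its ribosomal RNAs are made inside the organelle, whereas all of its proteins are encoded in the nucleus, made in the cytosol and imported. Part of the set has counterparts in the bacterial ribosome and part is found only in mitochondria. Foxp3 is the transcription factor that defines Tregs, whose suppressive function is known to draw on oxidative metabolism.

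Markers of CD4+ T cells and Tregs were bright on every array, with a summed intensity of 6 genes of 33174 and 33782 in M354 Tregs, 27382 and 26158 in M176 Tregs, and 34209 and 33665 in WT Tregs. Beside Foxp3, 3 of the 6 were called in M176 against WT Tregs: Cd3d higher (1.16, adjusted p = 0.0005974), and Cd3e (-0.48, adjusted p = 0.00965) and Il2ra (-0.48, adjusted p = 0.009988) lower, with Cd3e and Il2ra not called when some single arrays were left out. Some arrays stood apart. Foxp3 itself measured 5991 and 5485 units of intensity in M354 Tregs, 3442 and 3321 in M176 Tregs and 5913 and 5327 in WT Tregs. It was thus lower in M176 than in WT Tregs (log2 change -0.73, SE 0.125, adjusted p = 0.0005538), while the 6 transduced arrays lay between 5233 and 6163. The summed intensity of 11 B cell markers was 2458.4 and 2493.8 in M354 Tregs, 2215.8 and 2108.4 in M176 Tregs, and 2309.1 and 4815.5 in WT Tregs, so that replicate 2 of WT Tregs carried more B cell transcript than the other 5 Treg arrays. Its Cd79a, a subunit of the B cell receptor, read 398.6 against 93.84 in replicate 1. The same sum was 4306.1 to 4820.5 in the transduced cells, where the labels name CD4+ T cells as well. Summed markers of 5 myeloid genes stayed between 239.55 and 288.99 on every array, and 1 erythroid marker between 43.798 and 76.013. Summed markers of CD8+ T and NK cells, 5 genes, were 3085.7 and 2642.6 in M354 Tregs, 1757.4 and 1432.9 in M176 Tregs, and 1860.3 and 1663 in WT Tregs. They were 3885 to 4799.4 in the transduced cells, and all 4 tested were called lower in WT Tregs than in WT-transduced cells. Of these, Nkg7, a gene of cytotoxic granules, was called higher in M354 than in WT Tregs (log2 change 1.01, adjusted p = 0.001745). In RNA from bulk cells, fewer cells of a type and less RNA per cell cannot be told apart.

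Mitochondrial ribosomal protein genes were higher in M176 Tregs than in WT Tregs. Of the 61 genes, 45 were called higher and 0 lower, where a gene was called at a limma p under 0.05 after Benjamini-Hochberg adjustment over all genes tested. Across all genes tested 24.7% were called in either direction, with 13.4% higher and 11.3% lower. The median log2 change of the 61 was 0.61, and it was -0.04 over all genes tested. Both M176 arrays lay above both WT arrays for 56 of the 61, against 30.3% of all genes tested. Both lay above the other 4 Treg arrays for 53 (86.9%), against 26.4% of all genes tested, and above all 10 other arrays for 32 (52.5%), against 11.2%. Without replicate 2 of WT Tregs, the array with more B cell transcript, 32 genes were called. Without replicate 1 of M176 Tregs 28 were.

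**Figure D1:**
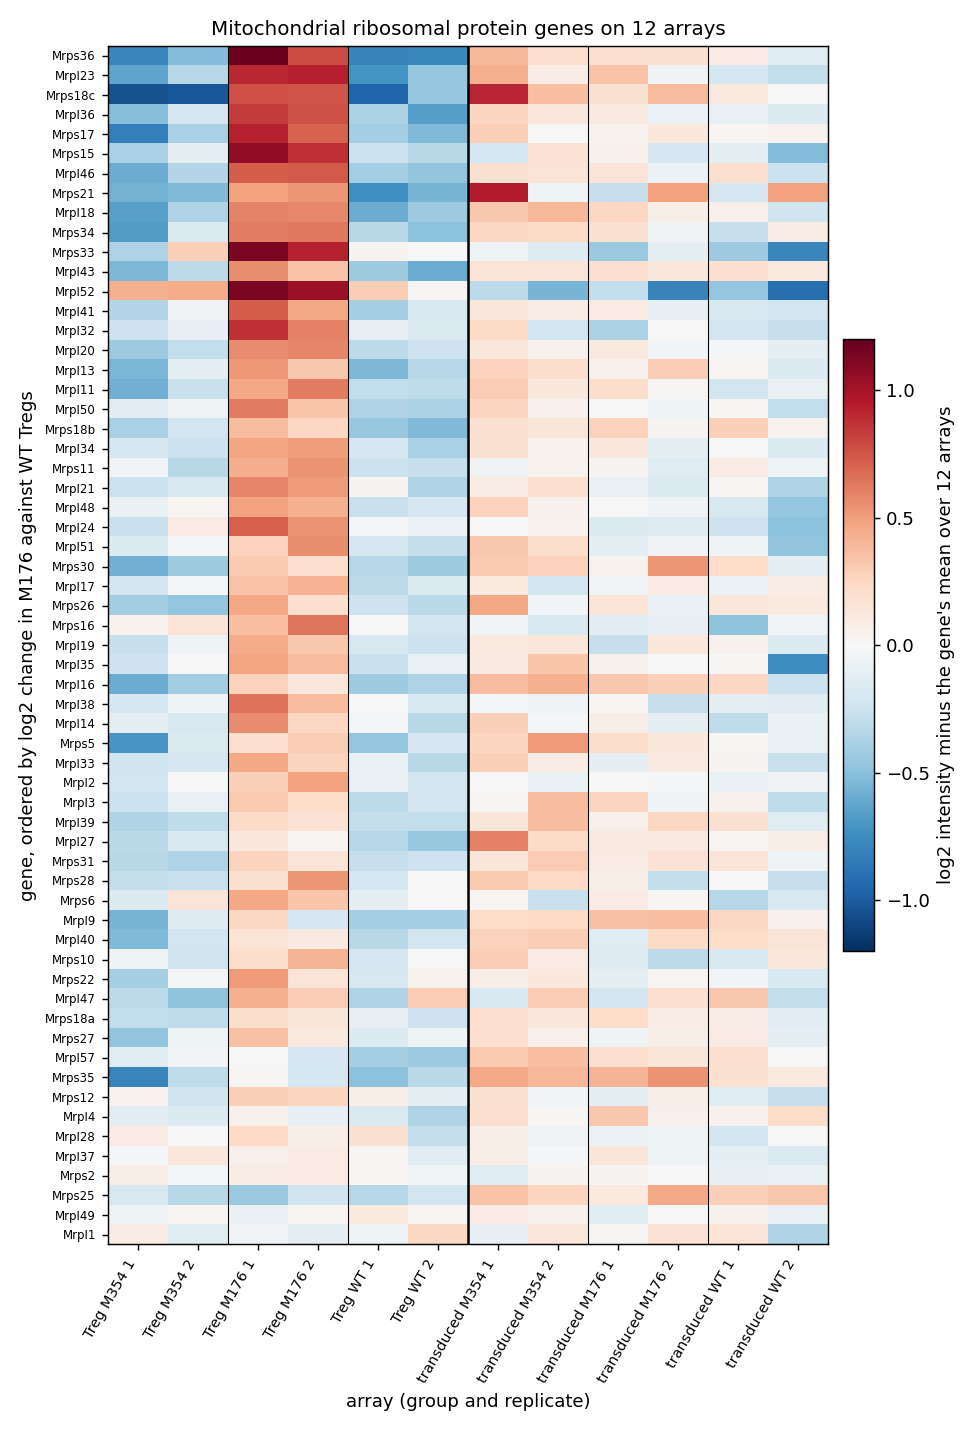
Log2 intensity of each of the 61 mitochondrial ribosomal protein genes (rows, ordered by the log2 change in M176 against WT Tregs) on each of the 12 arrays (columns), minus the mean of that gene over the 12 arrays. Both M176 Treg columns are red for most rows, and 53 of the 61 genes were higher on both of these than on the other 4 Treg arrays.

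The calls fell in both subunits. Of the large subunit genes 29 of 37 were called higher, with a median log2 change of 0.61 and a range of -0.17 to 1.51. Of the small subunit genes 16 of 24 were called higher, with a median of 0.60 and a range of -0.06 to 1.77. Sorted by the make-up of the protein, 28 of 36 genes with a bacterial counterpart were called higher (median 0.61), and 16 of 24 genes for proteins specific to mitochondria (median 0.61). This sorting was made after values had been seen. It leaves out Mrps36, whose product was first listed in the small subunit and was later placed, in yeast and in human, in the 2-oxoglutarate dehydrogenase complex of the citric acid cycle.

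Mrps36 had the largest change of the 61 in this comparison. It measured 166 and 125.6 units in M176 Tregs, against 42.02 and 42.82 in WT Tregs, with a log2 change of 1.77 (SE 0.153, adjusted p = 1.093e-06). Its WT level lay below the array median, and a second probe set of Mrps36, dimmer on average, gave a change of 1.85. With either M176 array left out the gene no longer passed the filter on low values and was not tested.

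Among the proteins of the small subunit with bacterial counterparts, Mrps18c rose most. It measured 435 and 429 units in M176 Tregs, against 131.5 and 183.8 in WT Tregs (log2 change 1.47, SE 0.176, adjusted p = 2.306e-05). Mrps17, a counterpart of a protein that binds ribosomal RNA early in assembly of the bacterial small subunit, measured 238.2 and 205.4 units in M176 Tregs, against 94.88 and 86.96 in WT Tregs (log2 change 1.28, SE 0.154, adjusted p = 2.306e-05). Its WT values lay below the array medians. Mrps15 averaged 1644 ± 152 units in M176 Tregs and 683.9 ± 23.8 in WT Tregs (SD, n = 2 each), a log2 change of 1.26 (SE 0.168, adjusted p = 6.662e-05). The groups did not overlap for any of these 3 genes, which the rule for naming them required. Mrps21 measured 1137 and 1169 units in M176 Tregs, against 487.1 and 549.9 in WT Tregs (log2 change 1.16, SE 0.274, adjusted p = 0.005735). Mrps12, a counterpart of the protein at the decoding centre, averaged 137.2 ± 1.89 units in M176 Tregs and 112.9 ± 10.8 in WT Tregs, a log2 change of 0.28 that was not called (adjusted p = 0.1489). Its call changed with the scaling: after quantile normalisation the change was 0.37 (adjusted p = 0.04728), and after cyclic loess normalisation 0.36 (adjusted p = 0.04981).

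Of the large subunit, Mrpl23, whose bacterial counterpart sits at the exit of the peptide tunnel, measured 1762 and 1799 units in M176 Tregs, against 571.5 and 682.5 in WT Tregs (log2 change 1.51, SE 0.16, adjusted p = 8.071e-06). A second probe set of Mrpl23 gave the same size, 1.51. Mrpl36, a short protein bound to the ribosomal RNA of the large subunit, measured 964.4 and 915.3 units in M176 Tregs, against 413.2 and 340 in WT Tregs (log2 change 1.33, SE 0.143, adjusted p = 8.487e-06). Mrpl18, a protein of the central protuberance, averaged 545.5 ± 3.27 units in M176 Tregs and 254.8 ± 20.4 in WT Tregs, a log2 change of 1.10 (adjusted p = 5.262e-05). For Mrpl23, Mrpl36 and Mrpl18 the lowest M176 array stood above every other Treg array.

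Genes for proteins specific to mitochondria were among those that rose. Mrpl46 measured 358.5 and 360.6 units in M176 Tregs, against 162.6 and 155.5 in WT Tregs (log2 change 1.18, SE 0.153, adjusted p = 4.956e-05). Mrps34 measured 318.1 and 322.3 units in M176 Tregs, against 165 and 147.5 in WT Tregs (log2 change 1.04, SE 0.165, adjusted p = 0.0003095). Mrps30 and Mrps18a carry a small subunit name, and their proteins sit in the large subunit of the mammalian mitoribosome. Mrps30 averaged 177 ± 11.3 units in M176 Tregs and 113.7 ± 4.52 in WT Tregs and was called (log2 change 0.64, adjusted p = 0.008008). That call was lost without replicate 1 of M176 Tregs (adjusted p = 0.08689). Mrps18a averaged 533.7 ± 17 units in M176 Tregs and 419.1 ± 31.1 in WT Tregs and missed the threshold (log2 change 0.35, adjusted p = 0.05489). It passed in 4 alternative settings.

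**Figure D2:**
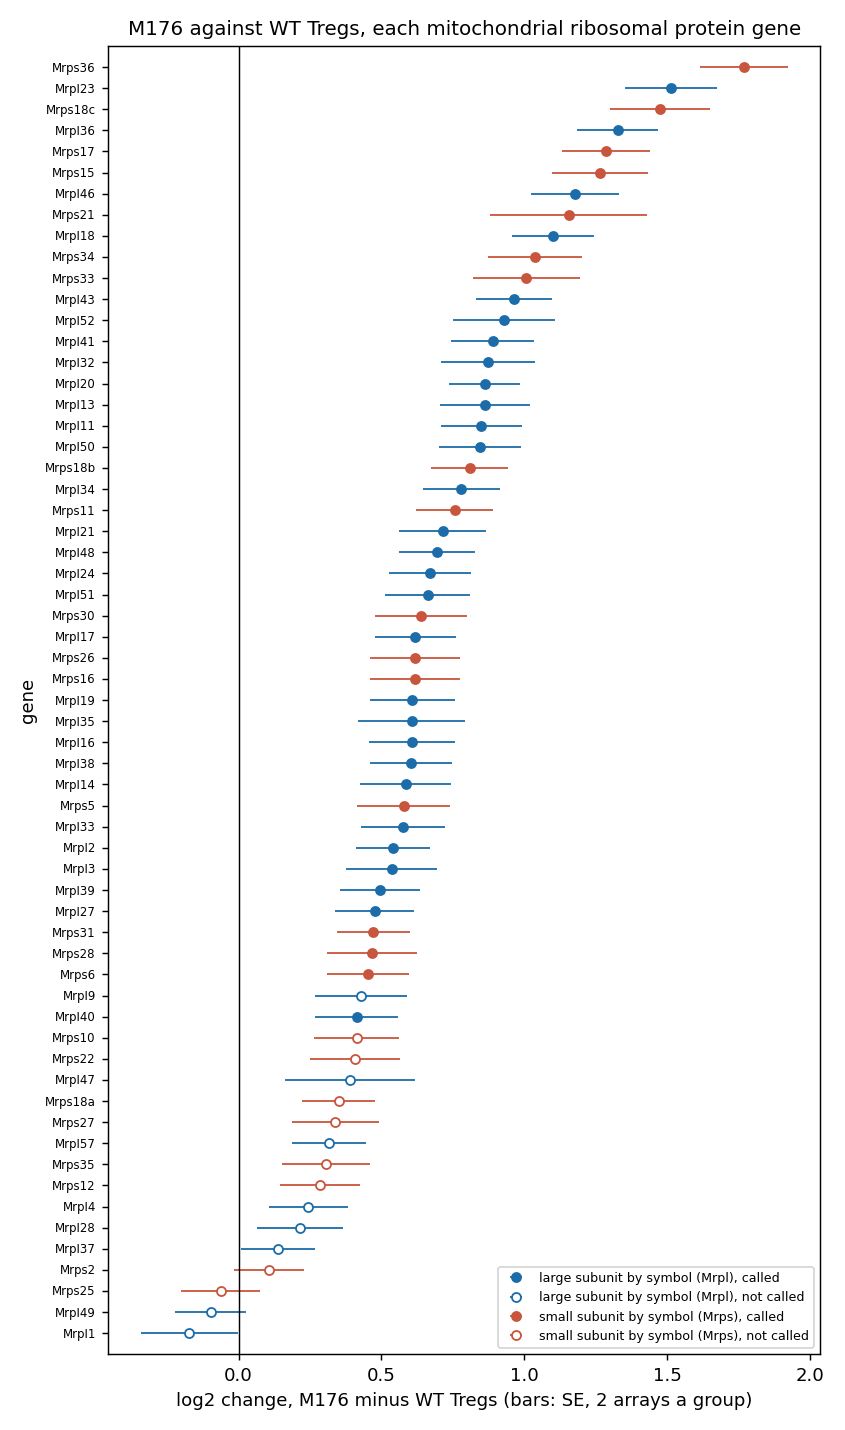
Log2 change in M176 against WT Tregs of each of the 61 genes, with its SE as a bar, ordered by size and coloured by the subunit in the symbol. Filled points were called (45 genes, all higher). The open points are the 16 genes that were not, from Mrpl9 at 0.43 down to Mrpl1 at -0.17.

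Of the 16 genes not called, 11 had both M176 arrays above both WT arrays and 5 had groups that overlapped. The smallest changes were those of Mrps25 and Mrpl49, both specific to mitochondria. Mrps25 measured 205.2 and 236.6 units in M176 Tregs, against 221 and 239.7 in WT Tregs (log2 change -0.06, SE 0.139, adjusted p = 0.7734). Mrpl49 measured 457.3 and 489.3 units in M176 Tregs, against 525.1 and 488.1 in WT Tregs (log2 change -0.10, SE 0.125, adjusted p = 0.5951). Neither value shows that these genes held an equal level in both groups. For 7 of the 61 genes a second probe set was present, and 2 pairs disagreed. The probe set used for Mrpl41 gave 0.89 and the dimmer one 0.15, and for Mrpl51 the values were 0.66 and 0.09. The 5 other pairs, of Mrpl23, Mrpl47, Mrps33, Mrps36 and Mrps5, differed by less. Near-identical copies elsewhere in the genome could share such probe sets, so the sizes for Mrpl41 and Mrpl51 are uncertain. With the mean of probe sets, the Mrpl51 call was lost and the Mrpl41 call was kept.

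The start sites of these genes were looked up in RefSeq (GRCm38.p6), where 54 of the 61 had at least 1 window of 300 bases, 250 before the start and 50 after it. Their 60 windows had a median GC content of 58.2%, against 52.7% over the 32851 windows of all genes. On either strand, CCGGAAG, the core bound by ETS factors such as GABP, stood in 22 of the 60 windows (36.7%), against 8.86% of all windows. AAGATGGCG, a YY1 motif, stood in 6 (10%), against 1.4%, and the NRF1 motif (GCGCA, any base, GCGC) in 8 (13.3%), against 4.6%. The E-box CACGTG, bound by Myc among others, stood in 7 (11.7%), against 7.15%, and TATAAA in 4 (6.67%), against 13.6%. The 7 windows with an E-box belong to 5 of the 54 genes, since 3 overlapping windows of Mrpl2 hold it. No window held matches of different motifs that shared a base. GABP, NRF1 and YY1 are known as regulators of nuclear genes for mitochondrial proteins. A match is a description of the letters and says nothing of binding in these cells. The median change in M176 against WT Tregs was 0.64 for the 22 genes with the ETS motif and 0.60 for the 32 without it. It was 0.60 with the NRF1 motif and 0.63 without, 0.48 with the YY1 motif and 0.62 without, 0.86 for the 5 genes with the E-box and 0.62 without, and 0.94 for the 4 genes with TATAAA and 0.61 without. These differences were not tested.

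The windows below are those of Mrps18c, Mrpl36 and Mrps21, shown because these risers carry different motifs, of Mrpl46 and Mrps11, shown because they lie head to head, and of Mrps25, which had the smallest change. Capitals mark matches to the NRF1, ETS, YY1 and E-box motifs on either strand, and each window is written 5′ to 3′ on the strand of its gene. Mrps18c lies at chr5:100798509-100798808 on the plus strand, with an E-box and an ETS match 1 base apart. Mrpl36 lies at chr13:73330759-73331058, plus strand, with an E-box and a YY1 match. Mrps21 lies at chr3:95871465-95871764, minus strand, with an NRF1 and an ETS match. Mrpl46 lies at chr7:78783040-78783339, minus strand, and Mrps11 at chr7:78782881-78783180, plus strand. These 2 windows share 141 bases, and the YY1 match of Mrps11 lies outside the shared stretch. Mrps25 lies at chr6:92183974-92184273, minus strand, and holds none of the 4 motifs.
Mrps18c: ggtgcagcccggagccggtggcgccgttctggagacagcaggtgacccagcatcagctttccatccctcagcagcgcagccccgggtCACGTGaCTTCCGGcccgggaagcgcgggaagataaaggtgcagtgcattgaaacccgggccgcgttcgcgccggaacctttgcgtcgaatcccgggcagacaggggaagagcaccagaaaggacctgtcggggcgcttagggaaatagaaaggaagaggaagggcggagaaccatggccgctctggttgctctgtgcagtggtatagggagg
Mrpl36: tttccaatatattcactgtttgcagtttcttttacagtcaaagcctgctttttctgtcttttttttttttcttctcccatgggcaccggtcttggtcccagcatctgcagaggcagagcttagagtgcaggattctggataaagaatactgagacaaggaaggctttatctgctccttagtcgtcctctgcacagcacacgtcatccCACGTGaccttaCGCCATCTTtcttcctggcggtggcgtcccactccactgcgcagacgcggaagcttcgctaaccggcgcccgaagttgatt
Mrps21: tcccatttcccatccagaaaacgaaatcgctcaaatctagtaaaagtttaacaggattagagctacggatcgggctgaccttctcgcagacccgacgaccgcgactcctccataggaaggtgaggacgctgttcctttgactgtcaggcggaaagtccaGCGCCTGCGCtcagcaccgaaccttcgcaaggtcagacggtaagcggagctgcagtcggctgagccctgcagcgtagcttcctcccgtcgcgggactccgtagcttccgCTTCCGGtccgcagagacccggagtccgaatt
Mrpl46: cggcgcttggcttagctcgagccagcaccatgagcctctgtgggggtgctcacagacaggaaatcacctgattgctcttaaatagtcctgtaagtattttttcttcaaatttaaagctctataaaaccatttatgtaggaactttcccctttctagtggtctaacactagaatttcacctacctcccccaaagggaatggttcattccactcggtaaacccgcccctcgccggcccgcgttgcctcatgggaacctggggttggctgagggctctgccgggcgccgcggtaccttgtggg
Mrps11: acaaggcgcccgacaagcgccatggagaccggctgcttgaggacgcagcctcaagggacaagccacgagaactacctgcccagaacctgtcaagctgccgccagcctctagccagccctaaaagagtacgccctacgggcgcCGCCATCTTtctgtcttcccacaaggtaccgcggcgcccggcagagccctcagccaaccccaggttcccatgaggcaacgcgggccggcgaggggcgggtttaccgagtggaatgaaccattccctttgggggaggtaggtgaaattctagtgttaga
Mrps25: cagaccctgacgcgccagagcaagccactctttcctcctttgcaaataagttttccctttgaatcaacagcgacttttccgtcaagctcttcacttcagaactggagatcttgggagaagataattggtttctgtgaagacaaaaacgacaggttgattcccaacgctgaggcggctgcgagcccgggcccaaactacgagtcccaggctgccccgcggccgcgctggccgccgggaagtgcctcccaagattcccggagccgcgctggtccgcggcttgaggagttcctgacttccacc

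Mrps11, the neighbour of Mrpl46 and a counterpart of a bacterial small subunit protein, also was called higher. It measured 360.9 and 386.8 units in M176 Tregs, against 222.5 and 219.9 in WT Tregs (log2 change 0.76). Its change was smaller than the 1.18 of Mrpl46, and the difference between the pair was not tested.

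In M354 Tregs the same genes gave no call. Of the 61, 0 were called in either direction, where limma called 1.81% of all genes tested. The log2 changes against WT Tregs ran from -0.37 for Mrpl47 to 0.33 for Mrpl57, with a median of 0.02, against -0.04 over all genes tested. That median changed sign when single arrays were left out: it was 0.10 without replicate 1 of M354 Tregs, -0.07 without replicate 2 of M354 Tregs and -0.0036 without replicate 2 of WT Tregs. Mrpl57 was the single gene with an unadjusted p under 0.05 (adjusted p = 0.2738). It measured 446.8 and 482.8 units in M354 Tregs, against 374.2 and 363.7 in WT Tregs. For 45 of the 61 genes the M354 and WT arrays overlapped. Both M354 arrays lay above both WT arrays for 9 genes, against 13.1% of all genes tested, and below them for 7, against 24.6%. Mrps36 averaged 46.63 ± 6.12 units in M354 Tregs and 42.42 ± 0.565 in WT Tregs, and Mrpl23 674.2 ± 94.2 in M354 Tregs and 627 ± 78.5 in WT Tregs.

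Set directly against M176 Tregs, M354 Tregs had 49 of the 61 genes called lower and 0 higher. Over all genes tested 30.8% were called, 12.7% higher and 18.1% lower. This comparison uses the same M176 arrays as the one against WT, so its calls repeat part of that information. The median log2 change was -0.59. Mrps36 and Mrps27, which passed the filter only with M176 Treg arrays, are among the 49. Mrps18c measured 123.2 and 125.2 units in M354 Tregs, against 435 and 429 in M176 Tregs (log2 change -1.80, adjusted p = 2.186e-06). Mrps17 measured 71.1 and 95.97 units in M354 Tregs, against 238.2 and 205.4 in M176 Tregs (log2 change -1.42, adjusted p = 5.639e-06). Its M354 values lay below the array medians. Mrps36 (-1.64, adjusted p = 1.45e-06), Mrpl23 (-1.41, adjusted p = 8.86e-06), Mrps15 (-1.22, adjusted p = 5.413e-05) and Mrpl46 (-1.21, adjusted p = 2.356e-05) were the other large falls. Without replicate 1 of M354 Tregs, or without replicate 1 of M176 Tregs, 29 genes were called.

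In transduced cells neither mutant form gave a call among the 61 genes. For M354 against WT, limma called 0 of 61, where 1.33% of all genes tested were called. The changes nevertheless leaned one way, with 57 of the 61 above 0 and a median of 0.24 against 0.01 over all genes tested. Of the 61, 16 had an unadjusted p under 0.05, against 1015 of all 8918 genes tested. Both M354 arrays lay above both WT arrays for 35 genes, against 20.2% of all genes tested. The largest was Mrpl35, with 550.2 and 641.4 units in M354-transduced cells, against 513.9 and 304.1 in WT-transduced cells (log2 change 0.59, adjusted p = 0.1719). Without replicate 1 of the WT-transduced cells, Mrpl16, Mrpl35 and Mrpl51 were called, and without replicate 2 of the M354-transduced cells, Mrps18c (log2 change 0.86, adjusted p = 0.03875). Replicate 2 of the WT-transduced cells was the lowest of the 6 transduced arrays for 37 of the 61 genes, so the level of the WT group differs with the replicate. Without that array the median of the 61 was 0.14. With all arrays, 62 of 65 oxidative phosphorylation subunits (median 0.32) and 52 of 53 cytosolic ribosomal proteins (median 0.32) also lay above 0. Of the latter, 3 were called higher.

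For M176 against WT in transduced cells, 0 of 61 were called, where 0.516% of all genes tested were. An unadjusted p under 0.05 was found for 4 of the 61, against 527 of all 8918 genes tested. The median log2 change was 0.11, with a range of -0.21 to 0.40, against a median of -0.01 over all genes tested. It was 0.20 without replicate 1 of WT-transduced cells and 0.06 without replicate 2. Both M176 arrays lay above both WT arrays for 21 genes, against 13.4% of all genes tested. Mrpl23 had the largest value, with 1193 and 917.1 units in M176-transduced cells, against 813.1 and 772.9 in WT-transduced cells (adjusted p = 0.7102). The direct comparison of M354 with M176 in transduced cells also gave 0 calls among the 61, where 0.0785% of all genes tested were called. There 4 of the 61 had an unadjusted p under 0.05, against 462 of all 8918 genes tested. The median of the 61 was 0.11. That median was 0.07 after quantile normalisation and 0.07 without replicate 1 of M354-transduced cells.

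**Figure D3:**
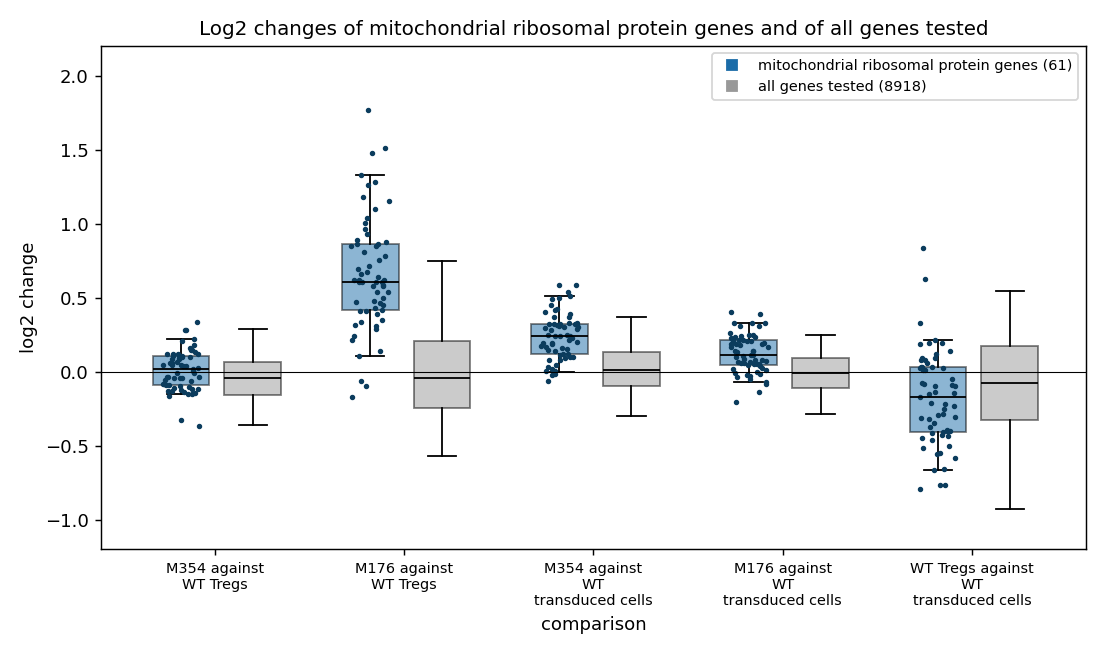
Log2 changes of the 61 mitochondrial ribosomal protein genes (blue boxes, with a point for each gene) and of all 8918 genes tested (grey boxes) in 5 comparisons. Boxes span the quartiles with the median as a line, and whiskers run from the 5th to the 95th percentile. The blue median is 0.61 for M176 against WT Tregs and 0.02 for M354 against WT Tregs.

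The effect of M176 was then tested for a difference between the systems, as the change in Tregs minus the change in transduced cells. It was called higher in Tregs for 15 of the 61 genes and lower for 0, where 5.47% of all genes tested were called, 4.01% higher and 1.46% lower. The median difference was 0.48. The 15 genes comprised 8 of the large subunit (Mrpl18, Mrpl20, Mrpl23, Mrpl34, Mrpl36, Mrpl43, Mrpl46 and Mrpl50) and 7 of the small subunit (Mrps11, Mrps15, Mrps17, Mrps18b, Mrps18c, Mrps34 and Mrps36). Mrps36 measured 83.5 and 83.36 units in M176-transduced cells, against 78.35 and 66.08 in WT-transduced cells. Its effect was larger in Tregs by 1.55 on the log2 scale (SE 0.217, adjusted p = 0.0005527). Mrps36 passed the filter on low values only through the M176 Treg arrays, so the filter favoured this call. With either of these arrays left out it was not tested. Mrpl46 measured 240.9 and 205.9 units in M176-transduced cells, against 248 and 180.4 in WT-transduced cells, and its effect was larger in Tregs by 1.10 (SE 0.216, adjusted p = 0.007269). For the other 46 genes the difference did not pass the threshold, which does not show that M176 acted alike in both systems. Across the 61 genes the changes in Tregs and in transduced cells, which share no array, had a Pearson correlation of 0.265 and a Spearman correlation of 0.252. Over all 8918 genes tested these were 0.322 and 0.309. Genes on the same arrays are not independent, and the values are given as a description. Without replicate 1 of M176 Tregs 5 of the 61 genes were called for this difference, and 9 were without replicate 2 of M176 Tregs or without replicate 1 of WT-transduced cells. The difference between the systems in the effect of M354 gave 0 calls, where 1.08% of all genes tested were called, with a median of -0.24. Here 8 of the 61 had an unadjusted p under 0.05, against 722 of all 8918 genes tested. The median was -0.15 without replicate 1 of M354 Tregs and -0.16 without replicate 2 of WT-transduced cells. For Mrps18c, the lowest at -0.91 (adjusted p = 0.1301), the call appeared without replicate 1 of WT Tregs (-1.15, adjusted p = 0.0302) and without replicate 2 of M354-transduced cells (-1.18, adjusted p = 0.02225).

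**Figure D4:**
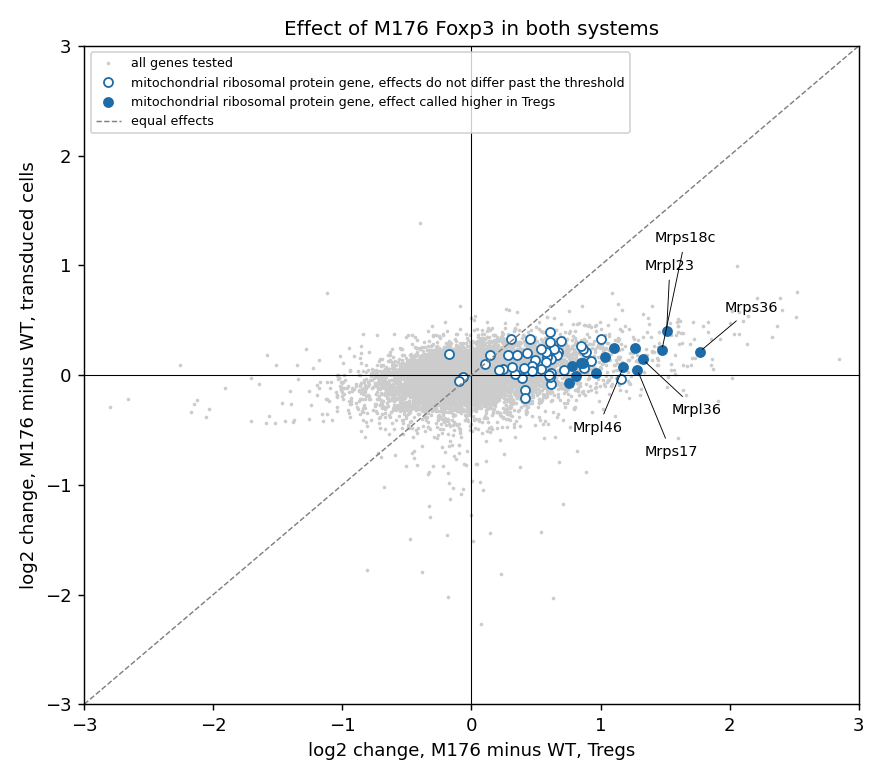
Log2 change of each gene in M176 against WT Tregs (horizontal axis) and in M176 against WT transduced cells (vertical axis). Grey points are all genes tested, blue points the 61 mitochondrial ribosomal protein genes, and filled blue points the 15 whose effect was called higher in Tregs. The filled points lie well below the dashed line of equal effects, and the 6 named genes had differences between 1.10 and 1.55.

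With WT Foxp3 in both systems, Tregs and transduced cells differed in 18 of the 61 genes. Relative to WT-transduced cells, 2 genes were called higher in WT Tregs and 16 lower, where 30.2% of all genes tested were called, 10.9% higher and 19.4% lower. The share of the 61 was thus near that of all genes. After quantile normalisation 3 were called higher and 9 lower, with a median of -0.09 for the 61 and 0.03 over all genes tested. The median log2 change was -0.17, against -0.08 over all genes tested, and -0.26 without replicate 2 of WT-transduced cells. The 2 genes higher in Tregs were both specific to mitochondria. Mrpl52 measured 1013 and 834.8 units in WT Tregs, against 601.2 and 442.8 in WT-transduced cells (log2 change 0.83, SE 0.177, adjusted p = 0.001964). Mrps33 measured 427.8 and 416.8 units in WT Tregs, against 308.7 and 243.5 in WT-transduced cells (log2 change 0.62, SE 0.186, adjusted p = 0.01816). The Mrps33 call was lost without replicate 1 of WT Tregs (adjusted p = 0.08141) or replicate 2 of WT-transduced cells (adjusted p = 0.1187).

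Among the 16 lower in WT Tregs, Mrpl43 averaged 233.5 ± 20.1 units in WT Tregs and 369.3 ± 14 in WT-transduced cells (log2 change -0.66, adjusted p = 0.001244). Mrps18b averaged 391 ± 15.3 units in WT Tregs and 617.8 ± 71.9 in WT-transduced cells (log2 change -0.66, adjusted p = 0.001619). Mrps25, which had the smallest change in M176 against WT Tregs, averaged 230.3 ± 13.2 units in WT Tregs and 344.9 ± 7.09 in WT-transduced cells (log2 change -0.58, adjusted p = 0.00461). For these 3 genes the arrays of the systems did not overlap, which the rule for naming them required. Mrps36 (-0.76, adjusted p = 0.001244) and Mrps18c (-0.77, adjusted p = 0.00347) were also called lower in WT Tregs. Mrps36 measured 42.02 and 42.82 units in WT Tregs, against 78.35 and 66.08 in WT-transduced cells. These values all lay below the median of their arrays, and Mrps36 was tested only because it passed the filter through the M176 Treg arrays. Its call was lost with either of those arrays left out and with the filter at percentile 75. The Mrps18c call was lost without replicate 1 of WT Tregs (adjusted p = 0.0749). Markers of B cells differed between replicate 1 of WT Tregs and the transduced arrays, and those of CD8+ T and NK cells between both WT Treg arrays and the transduced arrays, as given above, and their part in these calls was not tested. Without replicate 2 of WT Tregs 11 genes were called, without replicate 1 of WT Tregs 7, and without replicate 1 of WT-transduced cells 9.

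Mrps21 varied between the arrays within each transduced group. It measured 1564 and 781.5 units in M354-transduced cells, 668.8 and 1138 in M176-transduced cells, and 707.6 and 1133 in WT-transduced cells. The mean log2 intensity of 36 small nucleolar and Cajal body RNA genes split the same arrays in the same order, with 9.64 and 8.75, 8.86 and 9.46, and 8.61 and 9.18. That list does not include Mrps21, and its part in the Mrps21 values was not tested. The Mrps21 call for WT Tregs against WT-transduced cells (log2 change -0.79, adjusted p = 0.03788) was lost under quantile normalisation (adjusted p = 0.1288), under cyclic loess (adjusted p = 0.1251) and in 5 of the 12 fits with 1 array left out. Over all 61 genes the WT-transduced arrays did not follow that split. Replicate 2 was above replicate 1 for the small RNAs and had the lowest transduced mean of the 61, 8.19 against 8.32. The means of the 61 were 8.53 and 8.45 in M354-transduced cells, in the order of the small RNAs. They were level in M176-transduced cells, at 8.38 and 8.38.

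Other parts of the mitochondrial translation machinery held fewer genes, and some of them were called in M176 Tregs. Of 5 mitoribosomal proteins with other names, 2 were called higher against WT Tregs: Chchd1 (log2 change 1.36, adjusted p = 1.386e-05) and Gadd45gip1 (0.93, adjusted p = 9.66e-05). Chchd1 measured 440.1 and 388.4 units in M176 Tregs, against 167.9 and 154.2 in WT Tregs. Of 7 translation factors, 1 was called higher: Tufm, the elongation factor that delivers aminoacyl-tRNA (0.56, adjusted p = 0.008863). Of 16 mitochondrial aminoacyl-tRNA synthetases, 2 were called higher, Cars2 (0.52, adjusted p = 0.005583) and Hars2 (0.42, adjusted p = 0.04671), and the median of that list was 0.05. Over all genes tested 13.4% were called higher, close to the share of translation factors and synthetases. Without replicate 2 of WT Tregs, Tufm (adjusted p = 0.05761) and Cars2 (adjusted p = 0.05852) were not called, and without replicate 1 of M176 Tregs Tufm was not (adjusted p = 0.1291). The Hars2 call was lost after quantile normalisation (adjusted p = 0.08697), with no filter (adjusted p = 0.05918), with the replicate block (adjusted p = 0.0575) and in 6 of the 12 fits with 1 array left out. Of 21 genes for mitoribosome assembly and modification of its RNA, 6 were called higher, with a median of 0.19. Slirp, which stabilises mitochondrial messenger RNA together with Lrpprc, measured 426.8 and 413.1 units in M176 Tregs, against 135.4 and 137.7 in WT Tregs (1.62, adjusted p = 6.326e-06). Tfb1m, the methyltransferase of the small ribosomal RNA, had a change of 0.91 (adjusted p = 0.00448), and the GTPase Noa1 0.53 (adjusted p = 0.01695). Without replicate 1 of M176 Tregs neither was called (adjusted p of 0.09895 for Tfb1m and 0.1191 for Noa1), and Noa1 was not called without any one of the other 3 M176 and WT Treg arrays (adjusted p of 0.05799 to 0.06712). No gene of these 4 lists was called lower. They were chosen with earlier results of these data known, and the differences between lists were not tested.

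Of 13 genes for transcription and biogenesis of mitochondria, 1 was called higher and 2 lower in M176 than in WT Tregs, with a median of -0.18. These 3 of 13 stand beside 24.7% called among all genes tested. Myc, a transcription factor that promotes cell growth, was the one called higher (0.46, adjusted p = 0.02108). That call was lost after quantile normalisation (0.26, adjusted p = 0.1176) and without any one of the 4 M176 and WT Treg arrays (adjusted p of 0.05852 to 0.1203). Gabpb2, a beta subunit of the factor GABP, and Ppargc1b, a coactivator of mitochondrial biogenesis, were called lower (-0.51, adjusted p = 0.02367, and -0.41, adjusted p = 0.04834). Gabpb2 was not called without replicate 2 of WT Tregs, the array with more B cell transcript (-0.30, adjusted p = 0.2498), or without replicate 1 of M176 Tregs (adjusted p = 0.2384). The Ppargc1b call was lost with no filter (adjusted p = 0.0614), with the replicate block (adjusted p = 0.05199) and in 8 of the 12 fits with 1 array left out. In M354 Tregs no gene of these 5 lists was called against WT by limma, and over the 5 lists 2 had an unadjusted p under 0.05, both in the list for transcription and biogenesis.

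Other gene groups were called on the same M176 arrays, where 13.4% of all genes tested were called higher and 11.3% lower than in WT Tregs. Of 65 subunits of oxidative phosphorylation, 51 were called higher than in WT Tregs (median 0.80), among them Atp5mpl (2.07, adjusted p = 6.326e-06). Of 53 cytosolic ribosomal proteins, 36 were called higher (median 0.71), among them Rps21, which measured 1867 and 2123 units in M176 Tregs, against 371.3 and 327.6 in WT Tregs. Of the 36 small nucleolar and Cajal body RNA genes, 21 were called higher (median 1.15). Of 23 proliferation genes, 13 were called lower (median -0.82), with Ccna2, a cyclin of S phase and mitosis, at -2.66 (adjusted p = 5.659e-08). For the other allele, with 1.81% of all genes tested called against WT Tregs, M354 Tregs had 4 proliferation genes called higher and 0 of the oxidative phosphorylation, cytosolic ribosomal or small RNA genes called by limma, with 1, 0 and 1 of them at an unadjusted p under 0.05. For the difference between the systems in the effect of M176, 23 oxidative phosphorylation subunits were called higher in Tregs. So were 14 cytosolic ribosomal proteins and 9 small RNA genes, while 10 proliferation genes were called lower. Over all genes tested 4.01% were called higher and 1.46% lower for this difference. The part of any of these groups in the rise of the mitochondrial ribosomal protein genes was not tested.

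**Figure D5:**
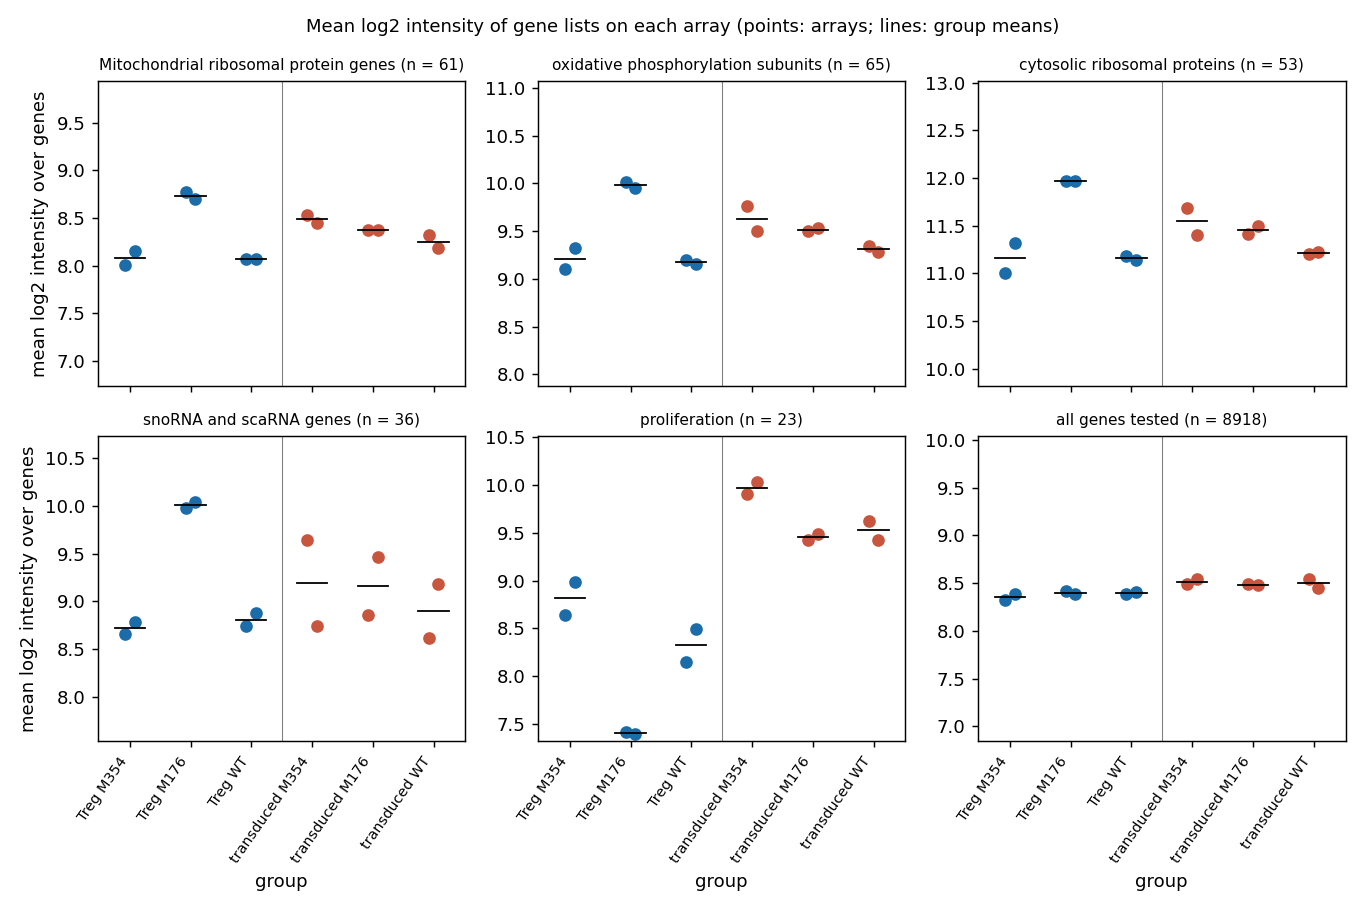
Mean log2 intensity on each array (points, with the group mean as a line) of the 61 mitochondrial ribosomal protein genes and of 5 other sets, in panels whose vertical axes span equal ranges. The 2 M176 Treg arrays are highest in the panels of mitochondrial ribosomal proteins, oxidative phosphorylation, cytosolic ribosomal proteins and small RNAs, lowest for proliferation, and level with the others over all genes tested.

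Averaged over the 61 genes, log2 intensity was 8.01 and 8.16 in M354 Tregs, 8.77 and 8.70 in M176 Tregs and 8.08 and 8.07 in WT Tregs. It was 8.53 and 8.45 in M354-transduced cells, 8.38 and 8.38 in M176-transduced cells and 8.32 and 8.19 in WT-transduced cells. The M176 Treg arrays thus stood above every transduced array, and the other 4 Treg arrays below every one. Of the 61 genes, 27 had their highest value of all 12 arrays on replicate 1 of M176 Tregs and 14 on replicate 2. The mean over all genes tested ranged from 8.32 to 8.55 on the 12 arrays and was 8.41 and 8.39 on the M176 Treg arrays.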

How the data were processed

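A total of 12 arrays in 6 groups of 2 were compared, grouped by the sample labels. The authors used Affymetrix Power Tools and RMA, per the submitters' processing notes; RMA subtracts background, makes arrays comparable and summarises each probe set. The deposited values are linear intensities per probe set. Their genome build and probe set library are not given in the sources used. No depth is defined for an array, and 2 arrays per group limit the precision.

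Of 20716 probe sets, 17703 had 1 gene symbol in the platform annotation, 1246 several and 1767 none. For the 734 genes with several, the brightest probe set was used. Mrpl12 is not analysed here. A gene was tested if above the median (percentile 50) of its array on at least 2 of 12 arrays. Array medians ran from 101.5 to 117.4. Log2 intensities of all 12 arrays entered a single limma fit (version 3.58.1, R 4.3.3) of 6 group means without a block, with 6 residual degrees of freedom and a prior of 10.9. The 9 comparisons were adjusted over all genes by Benjamini-Hochberg and called at 0.05. Adjusted p and SE are limma's, and SD are of linear intensities. The fit was tested on simulated data. Alternatives were quantile and cyclic loess normalisation, no filter, a filter at percentile 75, the mean of probe sets, the replicate number as a block, the arrays of one system alone, and each array left out.

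The genes and lists were chosen with earlier results of these data known. In each comparison up to 6 called genes with the largest rise and fall were named (10 for M176 against WT Tregs). Where 2 groups were compared, this rule took only genes whose arrays did not overlap between them. Also named were the 2 smallest changes, Mrps12, Mrps36, Mrps30 and Mrps18a, Foxp3, and up to 4 called genes per list. Mrpl1, Mrpl9, Mrpl47, Mrpl57, Mrpl35, Mrpl41, Mrpl51, Mrpl16, Mrps27, Mrps11 and the second system's values were named after being seen, as were the motifs and the sorting by bacterial counterpart. Promoter windows are RefSeq's, on GRCm38.p6, read with Python 3.11.15 and pandas 2.3.3.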

Additional observations from a re-analysis of the deposited data

Results flagged for a closer look

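For 6 genes the effect of M176 Foxp3 differed between the systems by the test of the difference itself (limma, change in Tregs minus change in transduced cells, 2 arrays a group). The differences on the log2 scale were 1.554 for Mrps36 (adjusted p = 0.0005527), 1.25 for Mrps18c (adjusted p = 0.008033), 1.234 for Mrps17 (adjusted p = 0.003777), 1.183 for Mrpl36 (adjusted p = 0.003021), 1.112 for Mrpl23 (adjusted p = 0.008609) and 1.103 for Mrpl46 (adjusted p = 0.007269). In each of the 6 both M176 Treg arrays lay above both WT Treg arrays, as for 30.3% of all genes tested. The 6 were picked by the size of this difference on the same arrays, which favours such an order. These are the largest of the 15 genes called for this difference. Mrps36 passed the filter on low values only through the M176 Treg arrays, so the filter favoured its call.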

How the results depend on the processing

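With 2 arrays a group, single arrays moved the counts. No count and no named gene that was called turned its direction in the alternatives run, but the median of the 61 genes in M354 against WT Tregs did: it was 0.10 without replicate 1 of M354 Tregs and -0.07 without replicate 2. With the filter at percentile 75, which left 34 of the 61 genes to test for M176 against WT Tregs, the calls were 28 for M176 against WT Tregs, 27 for M354 against M176 Tregs and 9 for the M176 effect compared between systems. With 1 array left out at a time, the calls ran from 28 to 47 for M176 against WT Tregs, 29 to 50 for M354 against M176 Tregs, 0 to 3 for M354 against WT transduced cells, 0 to 1 for the difference in the effect of M354, 5 to 18 for the difference in the effect of M176 and 7 to 18 for WT Tregs against WT transduced cells. For M176 against WT Tregs, 23 of the 45 genes were called whichever array was left out, and 14 in all 18 alternatives. For the difference in the effect of M176, 9 were called without replicate 2 of M176 Tregs or without replicate 1 of WT-transduced cells, and for WT Tregs against WT transduced cells, 9 without replicate 1 of WT-transduced cells. Quantile normalisation gave 12 calls in that comparison, 3 higher and 9 lower, and cyclic loess 13, 3 higher and 10 lower, against 2 higher and 16 lower. Over all genes tested, M354 against WT Tregs had 277 calls after quantile normalisation and 161 as deposited. The remaining 3 comparisons gave 0 calls in every alternative. Replicate numbers did not pair the samples in the same way in all groups: the differences between replicates 1 and 2 correlated at -0.551 to 0.251 between groups. The most negative values were -0.551 for M354- with WT-transduced cells and -0.429 for WT Tregs with WT-transduced cells. There, arrays of unlike replicate number varied alike, which a block by replicate number cannot remove. With the replicate block, 43 genes were called for M176 against WT Tregs, 47 for M354 against M176 Tregs, 15 for the difference in the effect of M176 and 17 for WT Tregs against WT transduced cells. The cause of these shifts was not tested, beyond the smaller number of genes or arrays by construction.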
